A study of Mus musculus with 6 samples.

Results

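Cytosolic ribosomal protein genes were measured in the left ventricle of mice without cytoglobin and of wild-type littermates, all given angiotensin II. The genes were chosen by symbol alone: names of the form Rps or Rpl with a number and at most a short suffix, the stalk genes Rplp0 to Rplp2, and Rpsa. Rows named as pseudogenes were left out. The rule found 81 of the 13384 genes in the table. Of these, 30 encode proteins of the small subunit, 41 proteins of the large subunit and 3 proteins of the stalk, and 7 are paralogs or "like" genes (Rpl3l, Rpl7l1, Rpl22l1, Rps27l, Rps4l, Rpl6l and Rpl32l). All but 3 are annotated as protein coding: Rpl6l and Rpl32l are processed pseudogenes and Rps4l is a transcribed processed pseudogene in GENCODE M21, so those names do not stand for an intact protein in that annotation. Polyadenylated RNA of left ventricle was sequenced from 3 Cygb(-/-) mice, in which the deletion is global and so present in every cell type, and from 3 Cygb(+/+) littermates. Every mouse of both groups received angiotensin II at 1.5 mg/kg/day for 2 weeks from a pump under the skin, and no mouse without it was part of the comparison. The genotype labels were not checked by the targeted gene, since Cygb was not analysed here. Per the series design, each library came from a single animal.

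Each cytosolic ribosome is built from ribosomal RNA and one copy of most of these proteins. The small subunit reads the mRNA, the large subunit joins amino acids, and the stalk on the large subunit recruits the elongation factors. Messenger RNAs of ribosomal proteins carry a pyrimidine tract at their start through which the mTOR pathway controls their translation, so their RNA level and their protein output can part. In heart and skeletal muscle, Rpl3l, a paralog of the large-subunit protein gene Rpl3, is expressed beside or in place of Rpl3. Ribosomal protein genes also have many processed copies elsewhere in the mouse genome, some of which are nearly identical to the parent transcript.

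The pairs below show how far a member can differ from a related gene, which bears on whether short reads can tell that pair apart. They do not cover other copies of a member. Only 14.4% of the Rpl3 transcript is unique to it by the measure described below. The first pair is Rpl3 (chr15:80077791-80091868, minus strand) and its muscle paralog Rpl3l (chr17:24727820-24736143, plus strand). The second pair is Rps27 (chr3:90212522-90213651, minus strand) and the retrogene Rps27rt (chr9:114982366-114982739), which lies outside the symbol rule. Each line is the first 90 coding bases, in the sense of the mRNA, from the GENCODE M21 annotation of the GRCm38 (mm10) genome, and capitals mark the bases that differ within a pair.
Rpl3: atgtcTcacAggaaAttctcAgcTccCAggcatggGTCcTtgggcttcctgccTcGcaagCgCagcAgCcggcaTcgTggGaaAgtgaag
Rpl3l: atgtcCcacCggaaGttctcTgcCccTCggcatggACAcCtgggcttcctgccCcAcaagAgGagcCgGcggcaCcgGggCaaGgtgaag
Rps27: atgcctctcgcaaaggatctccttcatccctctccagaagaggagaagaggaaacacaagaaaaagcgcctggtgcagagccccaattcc
Rps27rt: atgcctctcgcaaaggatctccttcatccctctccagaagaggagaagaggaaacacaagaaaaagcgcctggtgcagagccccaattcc
Rpl3 and Rpl3l differ at 21 of these 90 bases, an identity of 76.7%. Rps27 and Rps27rt differ at 0 of the 90 bases and at 0 of the 252 coding bases of Rps27. Rpl30 and its copy Gm12191 differ at 1 of 345 coding bases, and Rpl37 and Rpl37rt differ at 1 of 291.

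The deposited counts summed to between 23190864 and 30354857 per library, and every gene of the table had at least 12 counts in every library. Levels below are in CPM, counts scaled to the library total after TMM, a size factor that evens out composition between libraries. Cardiomyocyte markers were abundant in all 6 libraries, with 8 marker genes summing to between 58800 and 76980 CPM. Some libraries stood apart in ways the genotype labels do not give. The summed CPM of 4 atrial muscle genes was 3035 in wild type 1 and 2107 in wild type 2, and lay between 492 and 699 elsewhere. Nppa alone gave 2282 CPM of this sum in wild type 1 and 2058 CPM in wild type 2, against 449 to 623 CPM elsewhere. The sum of wild type 2 was thus nearly all Nppa, while in wild type 1 the other atrial genes had a larger part. Wild type 2 also had the highest fibroblast sum, 2898 CPM against 1380 to 1718, and wild type 1 the highest mesothelium sum, 31.1 CPM against 3.53 to 13.2. Counts from the mitochondrial chromosome took 22.6% ± 1.94 (SD, n = 3) of the knockout libraries and 19.3% ± 0.967 (SD, n = 3) of the wild-type libraries, and the groups did not overlap. In bulk tissue, fewer cells of a type and less RNA per cell cannot be told apart.

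Together the 81 genes took a small and variable share of all counts, lower on average in the knockout hearts but with overlapping groups. Their share was 0.389%, 0.407% and 0.334% in knockout 1 to 3 and 0.376%, 0.442% and 0.471% in wild type 1 to 3. The lowest library was a knockout and the highest a wild type, but wild type 1 lay below knockout 1 and 2. The 95% Wilson interval ran from 0.331% to 0.336% in knockout 3 and from 0.468% to 0.473% in wild type 3, so that counting error, which is all that these intervals cover, was small beside the spread between animals. The means were 0.376% ± 0.0381 (SD, n = 3) in knockout and 0.429% ± 0.0487 (SD, n = 3) in wild type, a difference of -0.0531 percentage points. The share of the small-subunit genes was 0.154% ± 0.0152 (SD, n = 3) in knockout and 0.179% ± 0.0205 (SD, n = 3) in wild type. That of the large-subunit and stalk genes was 0.188% ± 0.0207 (SD, n = 3) and 0.211% ± 0.0282 (SD, n = 3). Both classes overlapped between the groups. With the mitochondrial chromosome left out of the total, the difference in share was -0.0465 percentage points.

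**Figure D1:**
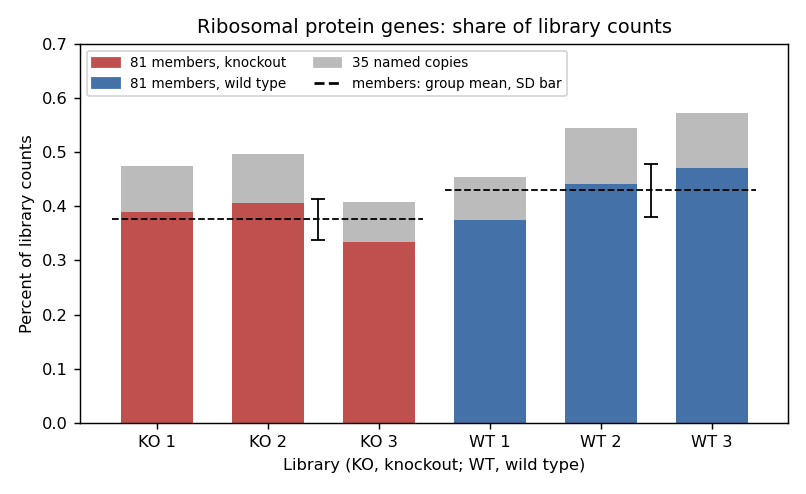
Bars show the percent of each library's counts that fell on the 81 ribosomal protein genes (red, knockout; blue, wild type), with 35 pseudogene and retrogene copies stacked in grey; dashed lines and bars give the group mean and SD of the 81 genes. Knockout 3 is lowest at 0.334% and wild type 3 highest at 0.471%, while wild type 1 lies among the knockouts.

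No ribosomal protein gene passed the threshold for a difference between the genotypes. In edgeR's quasi-likelihood test with Benjamini-Hochberg adjustment over all 13384 genes and a threshold of 0.05, 0 members were higher and 0 lower in knockout, where 0.0897% of all genes were higher and 0.0224% lower. DESeq2 also called 0 members, with 2.68% of all genes higher and 2.03% lower, and limma-voom called 0, with 0.0971% higher and 0.0224% lower. At an unadjusted edgeR p under 0.05 there was 1 member higher (Rps7) and there were 5 lower (among them Rpl29, Rps15 and Rpl8), against 10.2% and 8.94% of all genes. The knockout and wild-type values did not overlap in 3 members that were higher (Rps7, Rps28 and Rpl34) and 7 that were lower (among them Rps9, Rps15, Rpsa, Rpl8, Rpl17 and Rpl29), against 11.8% and 10.5% of all genes. By each of these counts the share of members was no larger than that of all genes.

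The direction of the estimates leaned to lower in knockout, and the lean lay in the abundant genes. Of the 81 log2 fold changes (knockout minus wild type), 50 were below 0 and 31 above, with a median of -0.08, where 50.6% of all genes were below 0 with a median of -0.00. Among the 20 members with a mean of at least 50 CPM, 19 were below 0, the exception being Rpl13a at 0.06, and their median was -0.18. Of all genes at that level, 51.1% were below 0. These 20 members are not independent of each other. By library, their median deviation from their own mean was lowest in knockout 3 and highest in wild type 3, while wild type 1 lay below knockout 1 and 2. Among the 26 members at 10 to 50 CPM, 14 were below 0 with a median of -0.02, and among the 35 members under 10 CPM, 17 were below 0 with a median of 0.04. The small-subunit genes had a median of -0.13 with 20 of 30 below 0, the large-subunit genes -0.08 with 23 of 41, the stalk genes -0.20 with 2 of 3, and the paralogs -0.06 with 5 of 7. When read counts were corrected for the GC content and length of the transcript, the median of all members was -0.01 with 43 below 0, and that of the abundant members was -0.08 with 16 of 20 below 0. Which of the 6 libraries entered mattered as much: the median ran from -0.20 without wild type 1 to -0.00 without knockout 3, and the number below 0 from 65 to 41.

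**Figure D2:**
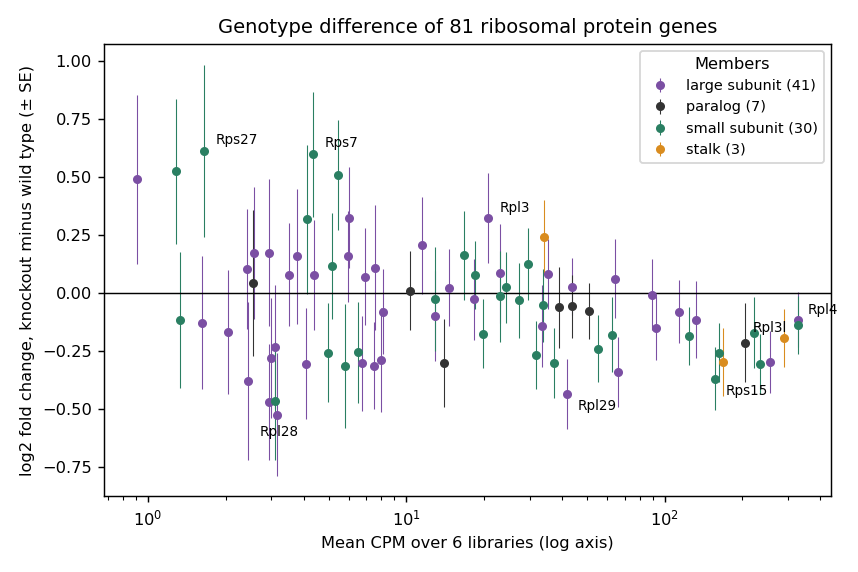
Each point is 1 of the 81 genes, with its mean level on the x axis (CPM, log axis) and its log2 fold change, knockout minus wild type, with its standard error on the y axis; colours give the class. Of the 20 genes at or above 50 CPM, 19 lie below 0, while genes under 10 CPM scatter to both sides from -0.53 to 0.61.

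The deviations by library show members that were high or low together from heart to heart, across the genotype labels. The median deviation of the members from their own mean over the 6 libraries, on the log2 scale, was 0.03, 0.07 and -0.17 in knockout 1 to 3 and -0.20, 0.20 and 0.09 in wild type 1 to 3. The same median over all genes stayed between -0.01 and 0.01. Of the 81 members, 38 were at their lowest in wild type 1 and 36 in knockout 3, while 33 were highest in wild type 2 and 27 in wild type 3. Wild type 1 and wild type 2, the libraries with the most Nppa, lay at opposite ends of the members' range. The share of the atrial, fibroblast and mesothelial signal in these deviations was not tested. Across libraries the median pairwise Pearson correlation of the members' log2 CPM was 0.47 over 6 libraries, and the median correlation of a member with the mean of all members was 0.70. A negative correlation with that mean was found for 5 members, the lowest being Rpl3l at -0.35. These correlations describe 6 libraries whose size factors they share. The abundant members followed a different order, with median deviations of -0.04, -0.04 and -0.20 in knockout 1 to 3 and -0.06, 0.14 and 0.26 in wild type 1 to 3. The residual SD of log2 CPM within groups had a median of 0.24 over the members and 0.21 over all genes. It was smallest for Rpl34, Rpl7l1 and Rpl4 (0.04, 0.08 and 0.08) and largest for Rps27, Rps16 and Rpl9 (0.59, 0.54 and 0.51).

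**Figure D3:**
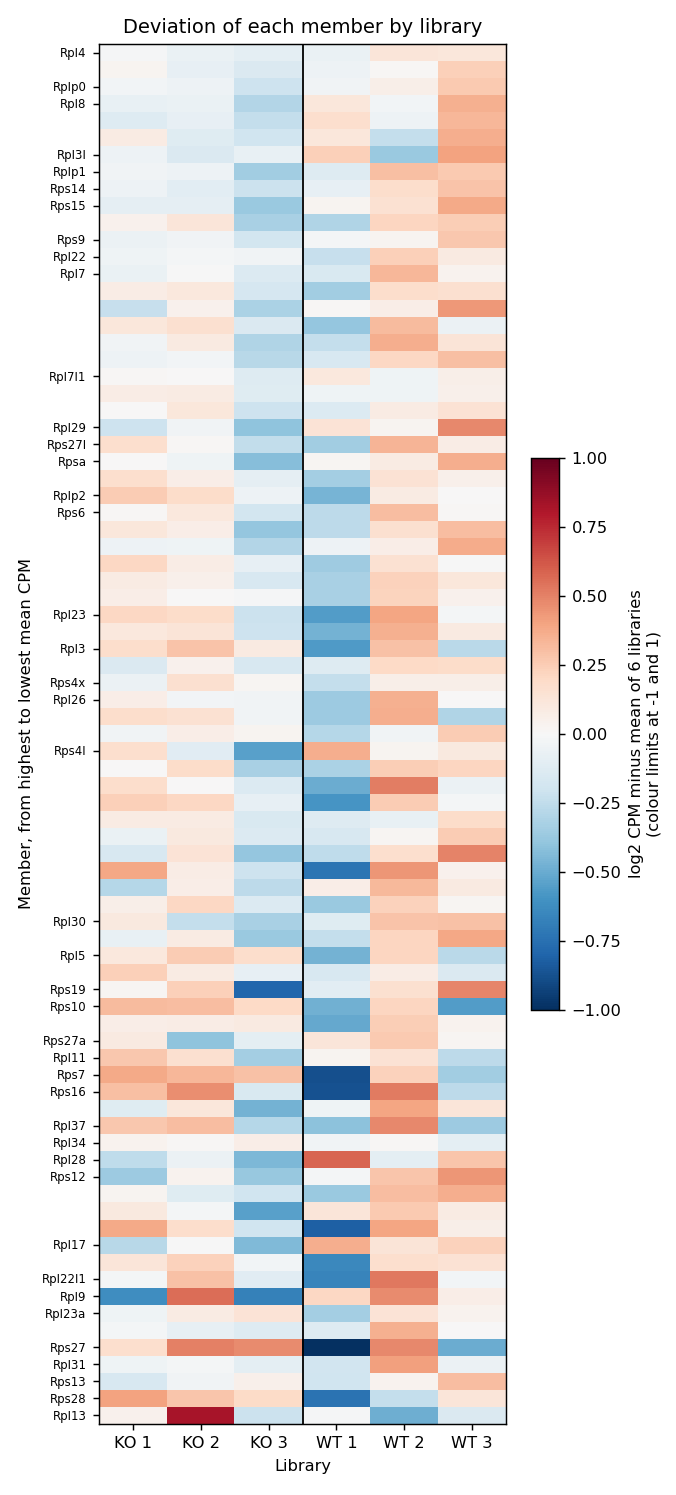
Rows are the 81 genes from the highest to the lowest mean level and columns the 6 libraries; colour is the log2 CPM of a gene in a library minus its mean over the 6 libraries, from blue (lower) to red (higher), with the scale limited at -1 and 1 and names given for a selection of rows. Wild type 1 is mostly blue and wild type 2 mostly red, and among the knockouts knockout 3 is the bluest, with 36 genes at their lowest there.

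Of the small subunit, Rps15, which sits in the head of the subunit near the decoding site, was at 145, 145 and 119 CPM in knockout 1 to 3 and at 158, 171 and 200 CPM in wild type 1 to 3. All 3 knockouts lay below all 3 wild types. The means were 136 ± 14.9 and 176 ± 21.95 CPM (SD, n = 3 each), a log2 fold change of -0.37 (adjusted p = 0.173 in edgeR, SE 0.14). Rps14 is a core protein gene of this subunit, and its log2 fold change was -0.26 (adjusted p = 0.290 in edgeR, SE 0.13). With the correction for GC content and length, the fold changes of Rps15 and Rps14 were -0.10 and -0.08.

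Rps7, needed for rRNA processing and able to bind Mdm2, was the member with the smallest p among those higher in knockout. It was at 5.43, 5.24 and 5.12 CPM in knockout and at 2.26, 4.89 and 3.28 CPM in wild type, so that the knockouts lay close together above a spread-out wild-type group. Its log2 fold change was 0.60 (adjusted p = 0.253 in edgeR, SE 0.27). Rps10 was at 6.58, 6.53 and 6.04 CPM in knockout and at 3.79, 6.13 and 3.57 CPM in wild type, where wild type 2 lay among the knockouts, and its log2 fold change was 0.51 (adjusted p = 0.264 in edgeR, SE 0.24). Rps28, the gene of a small protein at the mRNA exit, was at 1.63, 1.50 and 1.41 CPM in knockout and at 0.741, 1.05 and 1.34 CPM in wild type. Its groups did not overlap, but the counts were low, from 18 to 41 per library, and the log2 fold change was 0.52 (adjusted p = 0.378 in edgeR, SE 0.31). Rps12 was at 2.61 ± 0.444 CPM in knockout and 3.61 ± 0.566 CPM in wild type (SD, n = 3 each), a log2 fold change of -0.47 (adjusted p = 0.329 in edgeR, SE 0.26). Rps13 and Rps16, both at low levels, had log2 fold changes of -0.12 (SE 0.29) and 0.32 (SE 0.32). Corrected for GC content and length, Rps7 stood at 0.63, Rps10 at 0.67 and Rps28 at 0.67. Rps12 then stood at -0.33, Rps13 at -0.01 and Rps16 at 0.37.

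Other small-subunit genes are known for roles outside translation or in its control. Rps6, the target of S6 kinase, was at 33.3 ± 3.32 CPM in knockout and 34.6 ± 6.81 CPM in wild type (SD, n = 3 each), with a log2 fold change of -0.05 (adjusted p = 0.875 in edgeR, SE 0.16). Rps19, whose loss of 1 copy causes Diamond-Blackfan anaemia in people, was at 5.68, 6.58 and 3.22 CPM in knockout and at 5.19, 6.24 and 7.83 CPM in wild type. Its lowest value stood in knockout 3 and its highest in wild type 3, and its log2 fold change was -0.32 (adjusted p = 0.534 in edgeR, SE 0.27) and -0.00 after the GC and length correction. Rps27a, made as a fusion with ubiquitin, had a log2 fold change of -0.26 (SE 0.21), and the X-linked Rps4x one of 0.08 (SE 0.15). Rpsa, which is also known as the precursor of a laminin receptor, was at 37.1, 35.9 and 27.5 CPM in knockout and at 37.4, 39.1 and 47.5 CPM in wild type. Its groups were parted by less than 1 CPM, and the log2 fold change was -0.30 (adjusted p = 0.292 in edgeR, SE 0.15).

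Of the large subunit, Rpl29, a small basic protein also described as heparin binding, had the smallest p of all 81 genes. It was at 35.45, 40.03 and 30.95 CPM in knockout and at 44.95, 41.79 and 57.28 CPM in wild type. The groups did not overlap, with wild type 2 closest to the knockouts, and the log2 fold change was -0.44 (adjusted p = 0.161 in edgeR, SE 0.15), but -0.18 after the GC and length correction. Rpl8, which lies near the peptidyl transferase centre, was at 239, 240 and 206 CPM in knockout and at 274, 248 and 322 CPM in wild type. Its groups did not overlap and its log2 fold change was -0.30 (adjusted p = 0.248 in edgeR, SE 0.13), but -0.03 after the GC and length correction. Rpl4, the most abundant large-subunit gene in CPM, was nearly even across the hearts, from 308 to 357 CPM, with a log2 fold change of -0.12 (SE 0.12).

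Several of the lowest estimates came from large-subunit genes of low count. Rpl28 was at 2.57, 2.96 and 2.25 CPM in knockout and at 4.61, 2.87 and 3.74 CPM in wild type, with overlapping groups and a log2 fold change of -0.53 (adjusted p = 0.291 in edgeR, SE 0.26). Rpl17 was at 2.37, 2.87 and 2.12 CPM in knockout and at 3.71, 3.14 and 3.38 CPM in wild type, without overlap, and its log2 fold change was -0.47 (adjusted p = 0.316 in edgeR, SE 0.25). Rpl9 was at 1.51, 3.41 and 1.46 CPM in knockout and at 2.68, 3.22 and 2.43 CPM in wild type, so that knockout 2 alone was above all wild types, and its log2 fold change was -0.38 (SE 0.34). Rpl31, at a mean of 1.54 CPM in knockout and 1.69 CPM in wild type, had a log2 fold change of -0.13 (SE 0.29). Rpl13, the member with the lowest level, was at 0.898, 1.54 and 0.750 CPM in knockout and at 0.865, 0.620 and 0.786 CPM in wild type. Knockout 2 stood above the other 5 libraries, and the log2 fold change was 0.49 (adjusted p = 0.478 in edgeR, SE 0.36). Corrected for GC content and length, Rpl28 stood at -0.42, Rpl17 at -0.50, Rpl9 at -0.36, Rpl31 at -0.17 and Rpl13 at 0.73.

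Rpl5, Rpl11 and Rpl23 can bind Mdm2, the ubiquitin ligase of p53, when they are free of ribosomes. Rpl5 was at 6.33, 7.03 and 6.66 CPM in knockout and at 4.24, 6.86 and 4.88 CPM in wild type, with wild type 2 among the knockouts, and its log2 fold change was 0.32 (adjusted p = 0.434 in edgeR, SE 0.22) and 0.20 after the GC and length correction. Rpl11 had a log2 fold change of 0.08 (SE 0.24) and Rpl23 one of 0.08 (SE 0.22), and the sign of each turned when 1 library was left out (down to -0.05 for Rpl11 without knockout 1, and -0.13 for Rpl23 without wild type 1).

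The 3 stalk genes had estimates on both sides of 0. Rplp0, which anchors the stalk to the large subunit, was at 284, 279 and 250 CPM in knockout and at 282, 302 and 347 CPM in wild type, with overlapping groups and a log2 fold change of -0.20 (adjusted p = 0.413 in edgeR, SE 0.13). Rplp1 was at 162, 160 and 131 CPM in knockout and at 152, 205 and 199 CPM in wild type, with a log2 fold change of -0.30 (adjusted p = 0.278 in edgeR, SE 0.15). Rplp2, its partner in the stalk dimer, was at 40.3, 38.3 and 32.6 CPM in knockout and at 24.5, 35.9 and 33.9 CPM in wild type, with a log2 fold change of 0.24 (adjusted p = 0.433 in edgeR, SE 0.16). Wild type 1 was the lowest library for Rplp2 but not for Rplp0. After the GC and length correction the estimates were -0.09 for Rplp0, -0.05 for Rplp1 and 0.41 for Rplp2.

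Rpl3l stood well above its parent Rpl3 in every library, though only 14.4% of the Rpl3 transcript is unique to it by the measure described below. It was at 195, 183 and 192 CPM in knockout 1 to 3 and at 239, 157 and 267 CPM in wild type 1 to 3. Rpl3 was at 22.99, 24.76 and 21.61 CPM in knockout and at 13.7, 24.9 and 16.8 CPM in wild type. In both genes the knockouts were close together and inside the range of the wild types, whose second animal had the least Rpl3l and the most Rpl3. Per kilobase of transcript, Rpl3l stood at 150 CPM and Rpl3 at 15.4 CPM over the 6 libraries. The log2 fold change was -0.22 (adjusted p = 0.509 in edgeR, SE 0.17) for Rpl3l and 0.32 (adjusted p = 0.380 in edgeR, SE 0.20) for Rpl3. After the GC and length correction these were -0.00 and 0.40.

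The ratio of Rpl3l to Rpl3 counts was 8.50, 7.39 and 8.90 in the knockouts and 17.44, 6.303 and 15.84 in the wild types. The means were 8.26 ± 0.781 and 13.2 ± 6.02 (SD, n = 3 each), and the groups overlapped because wild type 2 had the lowest ratio of all. The difference in mean log2 ratio, knockout minus wild type, was -0.55, with a two-sided exact permutation p of 0.4, where 3 against 3 cannot go below 0.1. Adjusted over the 4 pairs of paralog and parent compared, this permutation p was 0.533. Without wild type 2 the difference was -1.01. Wild type 2 was also the library with 542 CPM of Postn, a gene of activated fibroblasts. The other 5 libraries had 97.8 to 172 CPM, and the part of this in its ratio was not tested. Rps27l, a p53-inducible paralog of Rps27, had counts 25.1, 17.9 and 15.3 times those of Rps27 in the knockouts and 43.2, 22.8 and 37.4 times in the wild types (exact permutation p = 0.2, adjusted 0.533). Rps27 itself had only 17 to 55 counts per library, and its coding bases are identical to those of Rps27rt. With the counts of Rps27rt added, the log2 fold change of Rps27 was -0.13 in place of 0.61. How this bears on the Rps27l ratio was not tested. Rpl22l1, which can take the place of Rpl22, had ratios to Rpl22 of 0.0235 ± 0.00336 and 0.0210 ± 0.00530 (SD, n = 3 each; exact permutation p = 0.4, adjusted 0.533). Rpl7l1 had ratios to Rpl7 of 0.561 ± 0.0150 and 0.546 ± 0.117 (SD, n = 3 each; exact permutation p = 0.9, adjusted 0.9). These ratios set counts of transcripts of unequal length side by side and serve to compare libraries, not the levels of the partners. The pseudogene row Rps4l was at 15.4, 12.7 and 9.39 CPM in knockout and at 17.6, 14.0 and 14.7 CPM in wild type, with a log2 fold change of -0.30 (adjusted p = 0.402 in edgeR, SE 0.19), and -0.01 after the GC and length correction.

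Wild type 2 decided whether any member was called. With that library left out and edgeR fitted to the other 5, 4 members were higher in knockout and 3 lower, where 7.25% of all genes were higher and 6.39% lower. Neither share of members was larger than that of all genes. Rps7 was higher by 0.92 on the log2 scale (edgeR adjusted p = 0.0300), Rps10 by 0.80 (0.0274), Rps27 by 1.15 (0.0426) and Rpl3 by 0.60 (0.0220). Among the lower ones, Rpl29 was lower by 0.52 (edgeR adjusted p = 0.0354) and Rpl3l by 0.40 (0.0319). In the fit of all 6 libraries with the GC and length correction, Rpl29 stood at -0.18 and Rpl3l at -0.00. Rps7 then stood at 0.63, Rps10 at 0.67, Rps27 at 0.71 and Rpl3 at 0.40. With copies added, Rps27, at 17 to 55 counts per library, stood at -0.13. With any 1 of the other 5 libraries left out, edgeR called 0 members, and over all genes 0 to 11 higher and 0 to 8 lower.

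The level of a member differed by far more between genes than between genotypes. Per kilobase of transcript, the mean level over the 6 libraries was 1.17 CPM for Rpl13 and 337 CPM for Rplp1, with a median over the members of 18.9 against 6.29 over all genes. Rplp1, Rps15, Rpl8 and Rps14 were among the highest 5, and the lowest 5 were Rpl13, Rpl31, Rps13, Rpl28 and Rpl5. The order followed, in part, how unlike the transcripts of other annotated genes a member's transcript is. Each member's transcript was divided into all its overlapping words of 50 bases, and the share of words found in the transcripts of no other annotated gene on either strand was taken as its uniqueness. This share ran from 1.35% for Rps27 to 100% for Rpl3l, with a median of 42.6%. The 23 members under 25% unique had a median level of 8.45 CPM per kilobase, the 23 at 25% to 50% one of 15.5, the 24 at 50% to 75% one of 29.7, and the 11 at 75% or more one of 78.0. Of the first group, 17 members were under 10 CPM, and of the last group 0. Spearman's rho between uniqueness and level per kilobase was 0.44 over the 81 members, which are not independent of each other and share the same 6 libraries. The treatment of reads that match several genes is not given in the sources used here, so the level of a member with near-identical copies is uncertain.

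**Figure D4:**
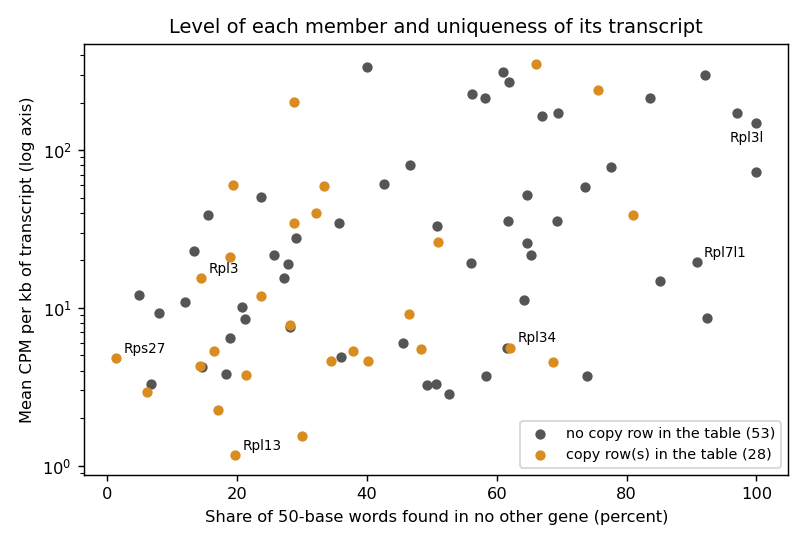
Each point is 1 of the 81 genes, with the percent of its 50-base words found in no other gene on the x axis and its mean level per kilobase of transcript on the y axis (CPM per kb, log axis); orange marks the 28 genes that have a copy of their own in the table. The 11 genes at 75% or more lie between 8.58 and 299 CPM per kb, and the 23 under 25% between 1.17 and 59.9.

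Many members had fewer counts than a copy of theirs. The table held 35 pseudogene or retrogene rows named as copies of 28 members, and 21 of the 35 had a higher mean level than their parent. Of the 35 members under 10 CPM, 18 had such a copy, against 6 of 26 at 10 to 50 CPM and 4 of 20 at 50 CPM or more. Rps27 stood at 2.00 ± 0.247 CPM in knockout and 1.30 ± 0.742 CPM in wild type, while Rps27rt, identical to it over the coding bases, stood at 78.8 ± 6.01 and 86.8 ± 13.3 CPM (SD, n = 3 each), a mean 50.1 times that of Rps27. The row Gm12191 (chr11:49678710-49679057) had a mean of 120 CPM against 6.76 CPM for its parent Rpl30. Rpl34-ps1 (chr6:71124610-71124963) had 86.4 CPM against 3.50 CPM for Rpl34, and Gm10132 and Gm10335 had 68.7 and 52.5 CPM against 2.42 CPM for Rpl23a. Whether reads of a parent were assigned to its copy cannot be told apart from expression of the copy in these counts.

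The direction of some members therefore hung on how copies were treated. With the counts of each copy added to its parent, the log2 fold change of Rps27 was -0.13 in place of 0.61, that of Rpl13 -0.48 in place of 0.49, and that of Rpl34 -0.01 in place of 0.08. Rps7, whose copy is Gm6252, kept its sign at 0.31 in place of 0.60, as did Rpl17 at -0.11 in place of -0.47 and Rps12 at -0.10 in place of -0.47. Rps19 stood at -0.04 in place of -0.32. The median over all members was then -0.10 with 56 of 81 below 0, and edgeR called 0 members in either direction, where 0.0899% of all genes were higher and 0.0225% lower. Of the 35 copies taken alone, 0 were called by edgeR, DESeq2 or limma-voom, and at an unadjusted p under 0.05 there were 1 higher and 4 lower, where 10.2% and 8.94% of all genes were. Rpl13-ps6 (chr3:58987170-58987805) had a log2 fold change of -0.53 (edgeR adjusted p = 0.133), opposite in sign to its parent; it was picked out after its values were seen. The copies took 0.0836% ± 0.00848 (SD, n = 3) of the knockout counts and 0.0948% ± 0.0136 (SD, n = 3) of the wild-type counts, and members and copies together took 0.460% ± 0.0465 and 0.524% ± 0.0617 (SD, n = 3 each). These groups overlapped as those of the members alone did.

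**Figure D5:**
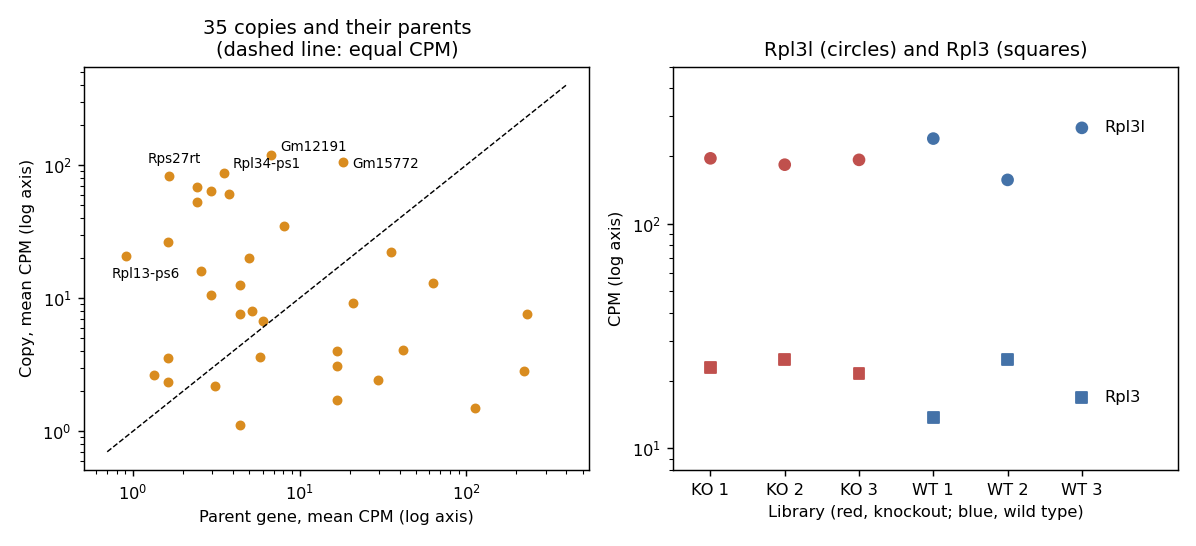
Left, mean CPM of each of 35 copies against that of its parent gene, both on log axes, with a dashed line at equal levels; 21 copies lie above the line, among them Rps27rt at 50.1 times Rps27. Right, CPM of Rpl3l (circles) and Rpl3 (squares) in each library on a log axis; the gap is narrowest in wild type 2, with a count ratio of 6.303, and widest in wild type 1, at 17.4.

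Of the ribosomal protein genes that the symbol rule leaves out, 5 were measured and edgeR, DESeq2 and limma-voom called 0, with 1 lower at an unadjusted edgeR p under 0.05, where 8.94% of all genes were lower. Fau, a ubiquitin-like fusion with a small-subunit protein, was at 5.70 ± 0.421 and 4.05 ± 1.20 CPM (SD, n = 3 each), a log2 fold change of 0.49 (adjusted p = 0.289 in edgeR, SE 0.24) and 0.76 after the GC and length correction. Rack1, a scaffold protein on the small subunit, had a log2 fold change of -0.12 (SE 0.13).

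The lists of genes that make ribosomes or work with them also held 0 calls by edgeR or limma-voom, while DESeq2 called 1 gene of ribosome biogenesis and 2 of mTOR and Myc control among the lists below, the first lower and the others higher, where it called 2.68% of all genes higher and 2.03% lower. At an unadjusted edgeR p under 0.05 there were 0 elongation factors, 2 initiation factors, 1 gene of those with the tract, 3 biogenesis factors and 1 gene of RNA polymerase I, all lower in knockout, where 8.94% of all genes were lower. Eif6 is counted in both the initiation and the biogenesis list. Of 9 genes listed as elongation factors, 3 estimates were above 0 and 6 below, with a median of -0.06, and the smallest p belonged to Eif5a at -0.27 (adjusted p = 0.270 in edgeR, SE 0.13). That list includes Eef2k, a kinase gene, and Eef1e1, which are not themselves elongation factors. Both were among those above 0, at 0.12 and 0.15. Of 30 initiation factors, 16 were above and 14 below with a median of 0.02. Eif6, which keeps the subunits apart until the large one is mature, was at 32.7 ± 1.66 CPM in knockout and 41.7 ± 5.69 CPM in wild type (SD, n = 3 each), a log2 fold change of -0.35 (adjusted p = 0.192 in edgeR, SE 0.14). After the GC and length correction, Eif5a and Eif6 both stood at -0.10. Of 19 genes outside the rule whose mRNA carries the pyrimidine tract, 11 were above and 8 below with a median of 0.02. Many of these are also counted in the elongation, initiation or biogenesis lists, so the lists are not separate sets. Vim, the gene with the tract at an unadjusted edgeR p under 0.05, had a log2 fold change of -0.31 (adjusted p = 0.2195 in edgeR, SE 0.13). After the GC and length correction Vim stood at -0.20. Tpt1, with the highest estimate of this list, was at 105 ± 7.32 CPM in knockout and 74.3 ± 29.5 CPM in wild type (SD, n = 3 each; log2 fold change 0.49, edgeR adjusted p = 0.269).

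Of 44 ribosome biogenesis factors, 24 estimates were above 0 and 20 below, with a median of 0.02. Nhp2, a core protein of the particles that guide rRNA pseudouridylation, had the smallest p of this list. It was at 15.0 ± 1.88 CPM in knockout and 21.9 ± 1.98 CPM in wild type (SD, n = 3 each), a log2 fold change of -0.55 (adjusted p = 0.102 in edgeR and 0.0351 in DESeq2, SE 0.15). Bop1, needed for large-subunit maturation, had a log2 fold change of -0.34 (adjusted p = 0.241 in edgeR, SE 0.15), which was -0.10 after the GC and length correction. Of 15 genes of RNA polymerase I and its factors, which make the rRNA, 7 were above and 8 below with a median of -0.06, and Polr1e, a polymerase subunit, was lowest in p at -0.45 (adjusted p = 0.167 in edgeR, SE 0.16). Corrected for GC content and length, Nhp2 stood at -0.40 and Polr1e at -0.45.

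Of 30 genes through which mTOR and Myc control ribosomal protein synthesis, 17 estimates were above 0 and 13 below, with a median of 0.03. At an unadjusted edgeR p under 0.05 there were 6 higher and 4 lower of the 30, against 10.2% and 8.94% of all genes, and 0 after adjustment in edgeR. Rragd, a Rag GTPase that brings mTOR to the lysosome, was at 153 ± 28.1 CPM in knockout and 108 ± 9.12 CPM in wild type (SD, n = 3 each), a log2 fold change of 0.51 (adjusted p = 0.114 in edgeR and 0.0457 in DESeq2, SE 0.15), which was 0.33 after the GC and length correction. Sesn1, a stress-induced inhibitor of mTOR, was at 160 ± 14.1 and 120 ± 4.11 CPM (SD, n = 3 each), a log2 fold change of 0.41 (adjusted p = 0.116 in edgeR and 0.0476 in DESeq2, SE 0.12), which was 0.32 after the GC and length correction. Larp4, a protein that binds the poly(A) tail, had a log2 fold change of 0.41 (adjusted p = 0.125 in edgeR, SE 0.12), which was 0.03 after the GC and length correction. Mtor itself had a log2 fold change of 0.07 (SE 0.21).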

How the data were processed

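The authors deposited raw whole-number read counts for each gene and library in 1 table. Per the submitters' processing notes, mm10 and DESeq2 were used, with no versions. The sources used here do not state the aligner, counter, annotation, use of strand or treatment of reads matching several genes. Library totals were summed from that table. Counts were fitted over all 13384 genes in edgeR 4.0.16 (R 4.3.3; TMM, robust quasi-likelihood test, two-sided, Benjamini-Hochberg, threshold 0.05), with knockout against wild type and no covariates; the tool's filter on low counts removed 0 genes. The fit was tested on simulated data. Ratios were tested by exact permutation (SciPy 1.17.1). GENCODE M21 gave positions, principal transcripts, lengths, GC content and 50-base words, with GC and length for 97.9% of genes.

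Alternatives were RLE and upper-quartile scaling, other filters, DESeq2 1.42.0, limma-voom (limma 3.58.1), no robust estimation, a GC and length correction (splines of 4 df), a replicate block, leaving out the mitochondrial chromosome, and leaving out each library. Adding copies to their parents, and counting estimates below 0 in each fit, were chosen after seeing the data. The members and lists were chosen with earlier results of these data known. Named members were the subunit, stalk, paralog and p53-related genes listed in advance, the 5 smallest p and 5 extreme fold changes in each direction, the 5 highest and lowest levels, the 3 largest and smallest spreads, and the 3 smallest p of each list, not all of which are given values, and some of which are not reported here; others named are copies, their parents and members whose groups did not overlap. The common biological coefficient of variation was 0.166.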

Additional observations from a re-analysis of the deposited data

How the results depend on the processing

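The call of 0 higher and 0 lower members held in every alternative except leaving out wild type 2; over the fits that leave out 1 library the counts ran from 0 to 4 higher and from 0 to 3 lower. Over those fits the median log2 fold change ran from -0.1975 to -0.0019, the difference in share from -0.0800 to -0.0318 percentage points, and the log2 difference of the Rpl3l to Rpl3 ratio from -1.01 to -0.28. The 19 of 20 abundant members below 0 became 17 to 20 in the same fits and 15 to 19 in the others. Replicate numbers are shared by the groups, but nothing in the labels says that they pair animals. Deviations of same-numbered libraries correlated at -0.12, -0.08 and -0.15 over all genes. With 3 libraries a group, these values cannot tell whether animals were paired. With a replicate block, 0 members were called and the median was -0.07, while calls over all genes were 131 higher and 87 lower in place of 12 and 3. DESeq2 gave 352 and 266, the GC and length correction 22 and 19, and the block with that correction 20 and 23, with a median over members of -0.0004. Some estimates changed sign, none of them past the threshold in the fit of all 6 libraries. The members named next are examples, and others changed sign too. With copies added, Rpl13 stood at -0.48 and Rps27 at -0.13, in place of 0.49 and 0.61, and Rpl34 at -0.0057. With the GC and length correction Rpl22l1 stood at -0.0541. Rpl41 (0.09 in place of -0.12), Rps2 (0.04 in place of -0.17) and Rpl36 (0.29 in place of -0.08) turned from below to above 0. So did Rpl32, Rpl26, Rps18, Rps21 and Rpl6l, and the number of members below 0 went from 50 to 43. With the block as well, Rpl22l1 stood at -0.0371, Rpl3l at 0.015 and Rps6 at 0.0029. Over the fits without 1 library, estimates crossed 0 for Rpl22 (-0.2010 to 0.0327), Rpl31 (-0.2436 to 0.0757), Rps27l (-0.2242 to 0.1135) and Rps6 (-0.1824 to 0.1086), each turned by wild type 2 and the last 2 also by knockout 3. Wild type 1 turned Rpl22l1 (-0.2024 to 0.3762, also turned by knockout 2), Rpl23 (-0.1261 to 0.3429) and Rps4x (-0.0134 to 0.1333). Wild type 3 turned Rps13 (-0.2297 to 0.0253) and, like knockout 1, Rpl11 (-0.0455 to 0.2401). The cause was not tested. The members under 10 CPM, with counts as low as 16 in a library, had the widest standard errors.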

Other observations

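Genes of ribosome quality control and of the p53 response to free ribosomal proteins gave 0 calls by edgeR and by limma-voom as well, while DESeq2 called 1 of the first list (lower) and 2 of the second (1 higher, 1 lower), where it called 2.68% of all genes higher and 2.03% lower. At an unadjusted edgeR p under 0.05 there were 3 higher and 1 lower of the first and 1 higher and 1 lower of the second, where 10.2% of all genes were higher and 8.94% lower. Of 12 quality control genes, 6 estimates were above 0 and 6 below. Pelo, which helps to take apart stalled ribosomes, was at 10.1 ± 1.01 CPM in knockout and 15.6 ± 3.04 CPM in wild type (SD, n = 3 each), a log2 fold change of -0.62 (adjusted p = 0.115 in edgeR and 0.0457 in DESeq2, SE 0.18). Ltn1, the ubiquitin ligase that marks unfinished chains, was at 33.4 ± 3.13 and 24.9 ± 4.39 CPM (SD, n = 3 each), a log2 fold change of 0.42 (adjusted p = 0.171 in edgeR, SE 0.15). After the GC and length correction Pelo stood at -0.36 and Ltn1 at 0.10. Of 10 p53 response genes, 5 were above 0 and 5 below. Phlda3, a p53 target that represses Akt, was at 15.4 ± 1.29 CPM in knockout and 25.7 ± 1.68 CPM in wild type (SD, n = 3 each). Its log2 fold change was -0.74 (adjusted p = 0.0562 in edgeR and 0.000717 in DESeq2, SE 0.14), and -0.35 after the GC and length correction. Mdm4, an inhibitor of p53, was at 26.5 ± 5.62 and 14.3 ± 4.98 CPM (SD, n = 3 each), a log2 fold change of 0.89 (adjusted p = 0.110 in edgeR and 0.0135 in DESeq2, SE 0.25), which was 0.71 after the GC and length correction.

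The 5 genes outside the rule whose log2 CPM followed the members' mean most closely over the 6 libraries were 1700008J07Rik (Pearson r = 0.994), Ptma (0.992), Fcf1 (0.989), C1d (0.985) and Nip7 (0.985). These were the highest among all genes over 6 points, and are given as a description. Fcf1 and Nip7 encode factors of pre-rRNA processing, and Ptma encodes prothymosin alpha. Their log2 fold changes ran from -0.18 to -0.08, and edgeR called 0 of the 5.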
